A study of Mus musculus with 9 samples.

Results

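The genes of the cytosolic ribosomal proteins were followed in RNA from the prelimbic cortex, part of the medial prefrontal cortex with a known role in pain and mood. They were found by gene symbol, with a pattern that takes Rpl and Rps names made of a number and optional lower-case letters, Rplp0 to Rplp2, and Rpsa. This gave 86 genes of the 55335 gene symbols measured, 53 of the large and 33 of the small subunit. Of these, 76 were core genes of the ribosome (46 large, 30 small) and 10 were paralogs or retrocopies, which are copies of another member made by duplication or by reverse transcription of its messenger. The pattern misses core genes that carry other names, such as Rps3a1 and Fau. A filter on low counts kept 84 of the 86 members and dropped the paralogs Rpl10l and Rpl39l.

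The study had 9 mice in 3 groups of 3, each with its own RNA library, collected on day 14 after surgery. Sham mice had a control operation and were given saline. SNI saline mice had SNI, short for spared nerve injury, a surgical model of neuropathic pain in which some branches of the sciatic nerve are cut, and were also given saline. R-HNK mice had the same injury and were given R-HNK, named in the study title as (2R,6R)-hydroxynorketamine, a metabolite of ketamine, at 10 mg/kg. Strain, sex, age and the time from drug to tissue collection are not stated in these sources.

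A cytosolic ribosome has a large subunit, which joins amino acids, and a small subunit, which reads the messenger. Each subunit needs its proteins in equal numbers, apart from the stalk proteins, and cells keep the messengers of these proteins at high and similar levels. Many of these messengers begin with a C followed by a run of C and T bases, called a 5' TOP motif, through which mTOR signalling sets how strongly they are translated. Measurements of messenger level, as here, do not report that translational control. Ribosomal protein genes have also left many processed pseudogenes in mammalian genomes, intronless copies of their messengers, and short reads may not tell such a copy from its source.

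The start sites are shown first, since they hold a sequence feature that was more frequent in members than in other genes and that the choice of members did not use. RefSeq start windows on GRCm38.p6 were found for 64 members. A C at the annotated start followed by at least 4 bases that were each C or T, read on the gene's own strand only, stood at the start of 15 of the 64 (23.4%), against 2.96% of 26961 other genes. When the run could begin within 10 bases of the annotated start, the counts were 40 of 64 (62.5%) and 34.3%. Among core genes the exact start was found in 7 of 34 large subunit genes and 6 of 22 small subunit genes. The 5 longest runs among core genes are printed from 30 bases before the start to 20 bases after it, with the run in capitals.
Rpl15: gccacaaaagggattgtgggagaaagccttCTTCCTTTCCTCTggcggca
Rpl35: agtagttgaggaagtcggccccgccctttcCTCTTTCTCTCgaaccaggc
Rps10: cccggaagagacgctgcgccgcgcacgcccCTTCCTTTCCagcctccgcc
Rps18: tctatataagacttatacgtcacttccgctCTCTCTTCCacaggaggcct
Rps6: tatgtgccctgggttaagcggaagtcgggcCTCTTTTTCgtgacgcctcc

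Rps27 and its intronless copy Rps27rt are shown next because Rps27 was the most variable core gene. Rps27, a zinc finger protein of the small subunit, has 4 exons at chromosome 3, 90212522 to 90213651. Rps27rt has 1 exon at chromosome 9, 114982366 to 114982739, and is annotated as protein coding. In the start windows the 2 genes share a stretch of 38 bases, of which the first 30 are printed in capitals after 35 bases of upstream sequence.
Rps27: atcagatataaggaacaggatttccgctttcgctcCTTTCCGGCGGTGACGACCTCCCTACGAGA
Rps27rt: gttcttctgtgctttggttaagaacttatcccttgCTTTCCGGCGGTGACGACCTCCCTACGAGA
Upstream of the capitals only 6 of the 35 positions match, so in this window the sequence before the start is unlike and the messengers start alike. The annotated messengers aligned over 341 bases with 0 mismatches, and the coding sequences of 255 bases were identical (GENCODE M21, GRCm38). That shared coding sequence is printed because a read that falls within it has no base by which it could be given to either gene.
Rps27 and Rps27rt: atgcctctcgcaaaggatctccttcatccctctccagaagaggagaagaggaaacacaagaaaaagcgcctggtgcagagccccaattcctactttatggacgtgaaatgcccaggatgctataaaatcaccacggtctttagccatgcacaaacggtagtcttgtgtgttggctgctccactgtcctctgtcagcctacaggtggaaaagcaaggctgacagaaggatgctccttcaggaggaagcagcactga

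Libraries held 53624337 to 73586375 counts. Levels are in CPM (a gene's counts over the TMM-scaled library total, on edgeR's usual CPM scale) and fold changes are log2 values from edgeR with a standard error (SE). The tissue was checked by its markers. Slc17a7, the vesicular glutamate transporter of cortical excitatory neurons, measured 1477 to 2089 CPM in the 9 libraries. The summed level of 12 markers of striatal medium spiny neurons, cells outside the cortex, was 1563 and 1472 CPM in sham replicates 2 and 3 and 698 and 990 CPM in R-HNK replicates 1 and 3, against 257 to 298 CPM in the other 5 libraries. These 4 libraries stand apart, and none of them is an SNI saline library. In edgeR's test 0 of the 12 markers passed in any comparison, although 12 of 12 were lower in SNI saline than in sham mice and 12 of 12 higher in R-HNK than in SNI saline mice. In bulk RNA, fewer cells of a type and less RNA per cell cannot be told apart.

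The members took a steady share of all counts. They held 0.978%, 1.11% and 1.14% of the counts in sham replicates 1, 2 and 3, then 1.06%, 1.10% and 0.966% in the SNI saline replicates, with 1.12%, 1.06% and 1.15% for R-HNK. The group means were 1.08% ± 0.0887 (SD, n = 3), 1.04% ± 0.0698 and 1.11% ± 0.0467. The lowest shares were those of sham replicate 1 and SNI saline replicate 3, so the low end held 1 library of each of those groups, and the 3 groups overlapped.

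Per kilobase of annotated messenger, core genes of both subunits had like medians, 158 CPM per kb for 46 large and 179 CPM per kb for 30 small subunit genes. Single core genes ranged from 26.6 to 699 CPM per kb. The highest large subunit genes were Rplp1, a stalk protein that helps recruit elongation factors, at 699 CPM per kb, Rpl41, a very small basic protein, at 583 and Rpl13 at 351. The highest small subunit genes were Rps15, which lies near the decoding site, at 402 CPM per kb, Rps14 at 338 and Rps29 at 315. The lowest large subunit core genes were Rpl7a at 43.2 CPM per kb, Rpl21 at 52.1 and Rpl17 at 59.0. Among core genes, those 3 were also the ones with the largest share of their reads in near-identical copies, 74.0%, 75.5% and 77.9%. The lowest small subunit core genes were Rps20 at 26.6 CPM per kb, Rps27a at 89.96 and Rps16 at 97.0. The value for Rps20 rests on an annotated messenger of 3706 bases, the longest in the set, so it depends on that annotation. Other values per kb depend on the annotated length in the same way, such as that of Rps16 on 1109 bases.

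**Figure D1:**
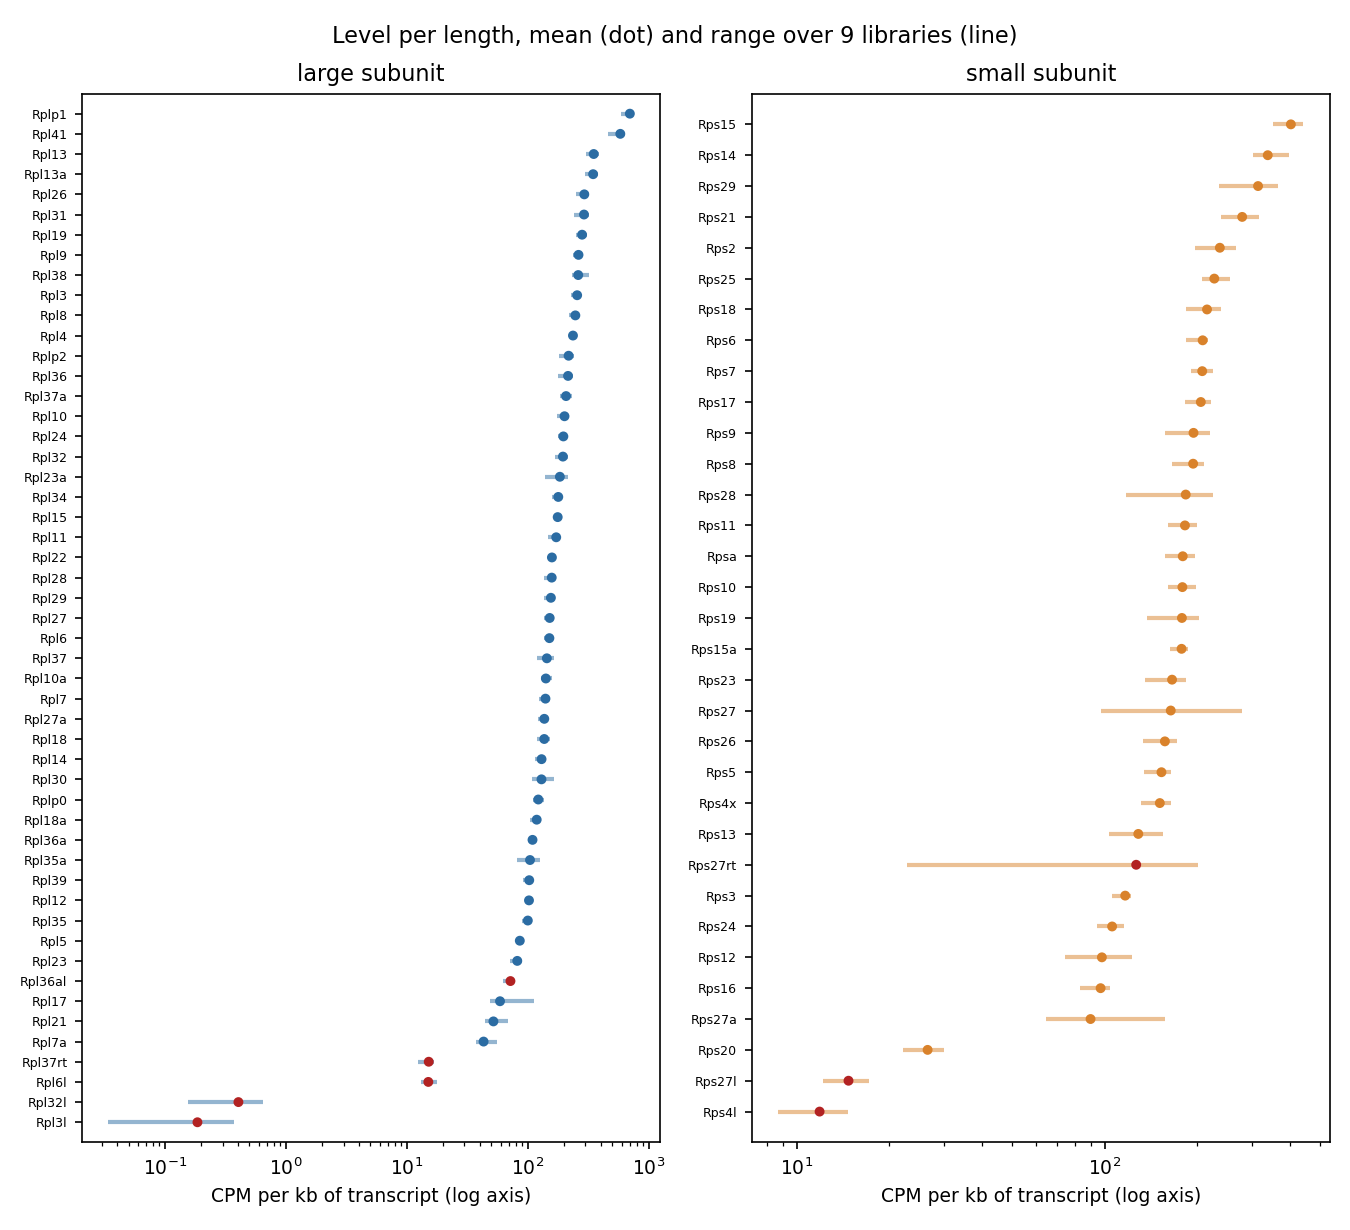
Level of each tested ribosomal protein gene in CPM per kb of messenger on a log axis, large subunit on the left and small subunit on the right, with a dot for the mean and a line for the range over 9 libraries (paralogs and retrocopies have red dots). Rplp1 at 699 and Rps15 at 402 lie at the top, core genes extend far below them, and the long lines belong to genes such as Rps27, Rps27rt and Rps27a.

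The stalk proteins kept unequal messenger levels. Rplp0, the stalk base, measured 150, 170 and 185 CPM in the sham replicates, 169, 163 and 153 in the SNI saline replicates, with 175, 158 and 173 for R-HNK. Rplp2, which pairs with Rplp1, measured 83.8, 97.5 and 93.1, then 92.5, 88.9 and 76.0, then 99.6, 91.7 and 103 CPM in matching order. Both genes were lowest in sham replicate 1 or SNI saline replicate 3, and all 3 groups overlapped. Per kb, Rplp0 stood at 122 and Rplp2 at 218 CPM, against 699 for Rplp1.

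Some members have a role of their own beyond the shared core work. Rps6, whose protein is phosphorylated by the S6 kinases, measured 161, 189 and 191 CPM in sham, 181, 189 and 180 CPM in SNI saline and 190, 177 and 186 CPM in R-HNK mice. Rpsa, which also serves as a laminin receptor, measured 251, 313 and 306, then 282, 281 and 270, then 297, 270 and 309 CPM. Sham replicate 1 was the lowest library for both genes, and the groups overlapped. Rpl10, a late-joining protein of the large subunit, ranged from 141 to 176 CPM, Rpl38, linked to the translation of Hox messengers, from 80.9 to 110, Rpl22, which also binds RNA outside the ribosome, from 70.8 to 80.7, and Rps25, needed for several internal ribosome entry sites, from 119 to 147.

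Of the paralogs and retrocopies, 1 besides Rps27rt came near its core gene. Rpl36al, an intron-poor copy of Rpl36a, averaged 37.9 CPM against 52.9 for Rpl36a, which is 72.0 against 110 CPM per kb. Rps27l, a p53-responsive relative of Rps27, averaged 7.35 CPM and Rps4l, a copy of Rps4x, 11.2 CPM against 147. Rpl6l averaged 13.1 CPM against 192 for Rpl6, and Rpl37rt 10.4 CPM against 120 for Rpl37. Rpl3l, the striated muscle paralog of Rpl3, averaged 0.255 CPM against 346, and Rpl32l 0.162 CPM against 101 for Rpl32. Rpl39l, known from the testis, averaged 0.0529 CPM against 63.0 for Rpl39 and had no count in 5 libraries. Rpl10l, which takes over from Rpl10 in male germ cells, had 0 counts in all 9 libraries. The symbols Rpl6l, Rpl32l, Rps4l and Rpl37rt are annotated as processed pseudogenes in GENCODE M21, and 82 of the 86 members as protein coding.

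The first comparison, SNI saline against sham mice, asks what the injury changed. No member passed, 0 of 84 at a Benjamini-Hochberg adjusted p under 0.05 in edgeR's quasi-likelihood test, where 1.07% of all 21765 genes tested passed. At an unadjusted p under 0.05 the count was also 0 of 84, against 16.6% of all genes. After adjustment DESeq2 called 0 members and 5.44% of all genes, and limma-voom 0 members and 4.83% of all genes. The median log2 fold change was -0.00 for large and -0.00 for small subunit genes and -0.02 for all genes. Higher values in the SNI saline mice were seen for 40 of 84 members (47.6%), the same share as in all genes (47.6%).

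The members with the smallest p in that comparison were Rps9, Rpl12, Rps27a and Rps12. Rps9, of the small subunit, measured 140, 155 and 165 CPM in sham and 144, 145 and 118 CPM in SNI saline mice. The groups overlapped, and the log2 fold change of -0.18 (SE 0.0931) had an adjusted p of 0.371 in edgeR's test. Rpl12, a protein of the stalk base, measured 118, 125 and 119 CPM in sham and 129, 138 and 125 CPM in SNI saline mice, a log2 fold change of 0.11 with an SE of 0.0627 and an adjusted p of 0.397 in edgeR's test. It was the only member with no overlap between these groups, 1 of 84 higher and 0 lower, against 10.9% and 10.9% of all genes.

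The second comparison, R-HNK against SNI saline mice, asks what the drug changed in injured mice, and shares the SNI saline libraries with the first. Again 0 of 84 members passed, where 0.119% of all genes did. DESeq2 called 0 members and 0.643% of all genes, and limma-voom 0 members and 0.211%. At an unadjusted p under 0.05 there were 2 members, Rpl30 and Rplp2, against 7.47% of all genes. The median log2 fold change was 0.06 for large and 0.05 for small subunit genes and 0.01 for all genes. Values were higher in R-HNK mice for 68 of 84 members (81.0%), against 51.4% of all genes. With the striatal marker score as a covariate the direction was lost, with medians of -0.01 for large and -0.04 for small subunit genes. The score was low in every SNI saline library, so the slope used for this adjustment came mainly from the sham and R-HNK libraries. The adjustment therefore cannot separate the score from the group. Without SNI saline replicate 3 and without the covariate the medians were -0.00 and 0.00. The groups did not overlap for 5 members that were higher and 1 that was lower, against 7.15% and 6.59% of all genes. The library median of a subunit varied within groups with a pooled SD of 0.0739 for the large and 0.0955 for the small subunit (log2). Each SD was larger than the median difference of that subunit. It describes single libraries, however, and is not the error of a difference between groups of 3.

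Rpl30, a large subunit protein that also regulates its own messenger in yeast, had the smallest p of any member in this comparison. It measured 72.8, 61.3 and 63.7 CPM in SNI saline mice and 86.0, 94.5 and 74.6 CPM in R-HNK mice, so all 3 R-HNK values lay above. The log2 fold change was 0.37 (SE 0.0933) with an adjusted p of 0.310 in edgeR's test. Rplp2 had a log2 fold change of 0.19 with an SE of 0.0866 and an adjusted p of 0.652 in edgeR's test and its groups overlapped. Rpl39, which lies in the exit tunnel for new proteins, measured 59.6, 63.6 and 55.9 CPM against 65.4, 67.2 and 66.2 CPM, a log2 fold change of 0.15 with an SE of 0.0713 and an adjusted p of 0.678 in edgeR's test.

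The third comparison, R-HNK against sham mice, shares its groups with the other two, so its values are not independent of them. None of the 84 members passed, 0 by edgeR, DESeq2 or limma-voom, where 0.00459% of all genes passed in edgeR, 0.0459% in DESeq2 and 0% in limma-voom. At an unadjusted p under 0.05 there were 2 members, Rpl30 and Rpl21, against 3.53% of all genes. The median log2 fold change was 0.05 for large and 0.05 for small subunit genes and -0.01 for all genes. Values were higher in R-HNK mice for 71 of 84 members (84.5%), against 48.3% of all genes. Without sham replicate 1 the medians were 0.01 and 0.00. Groups did not overlap for 5 members, all higher in R-HNK mice, against 4.43% of all genes higher and 4.42% lower. Rpl21 measured 41.8, 41.3 and 45.8 CPM in sham and 61.8, 48.7 and 47.7 CPM in R-HNK mice, a log2 fold change of 0.30 with an SE of 0.112 and an adjusted p of 1.00 in edgeR's test.

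The tests were also read by their 95% intervals. The interval lay within a 1.5-fold change in either direction for 77 of 84 members in the first comparison, 77 in the second and 78 in the third. Among core genes it reached beyond that range for Rpl17, Rps27 and Rps27a in all 3 comparisons, for Rps12 in the first and for Rps28 in the second. For these genes a change of that size could not be told from the spread between mice.

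**Figure D2:**
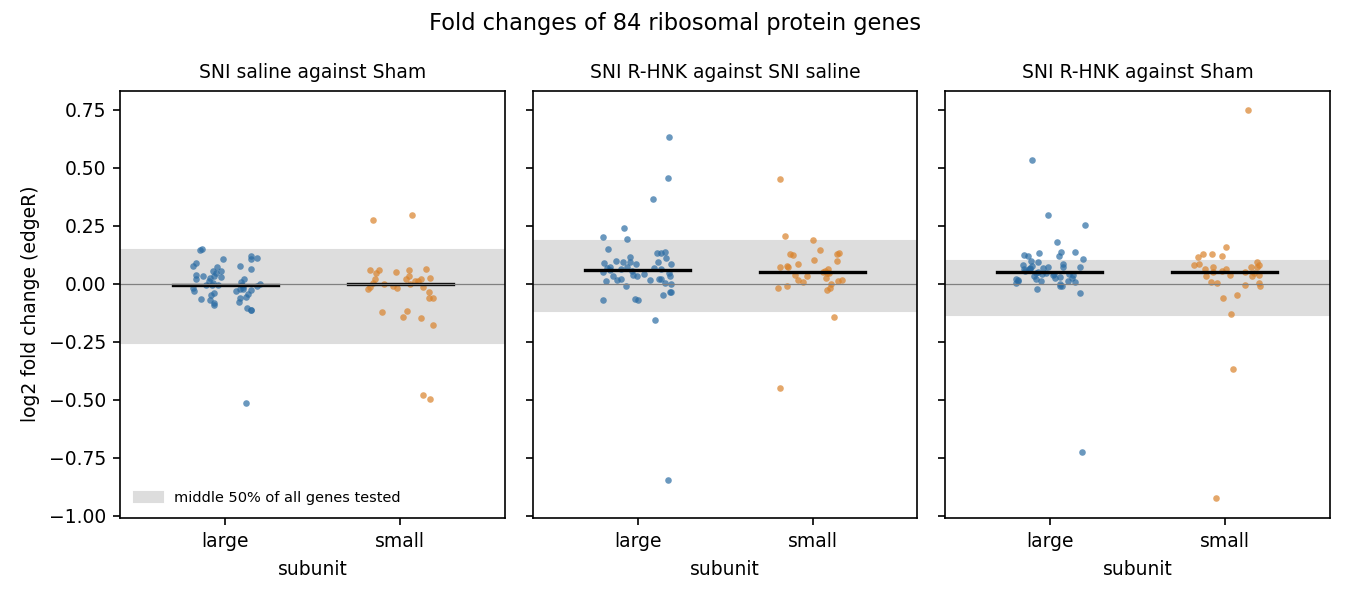
Log2 fold changes (edgeR) of 84 ribosomal protein genes in 3 comparisons, 1 dot per gene, by subunit, with the median as a black line and the middle 50% of all genes tested as a grey band. The medians lie at -0.00 in the first comparison and between 0.05 and 0.06 in the others, and the outlying dots are genes such as Rps27, Rps27rt, Rpl17 and the scarce Rpl3l and Rpl32l.

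Members differed together from library to library, within groups as well as between them. Each core gene was compared with its own mean over the 9 libraries on the log2 scale, and these deviations were averaged over the 76 genes. The mean deviation was -0.14, 0.04 and 0.04 in sham replicates 1, 2 and 3, then -0.00, 0.06 and -0.13 in the SNI saline replicates, with 0.07, -0.00 and 0.07 for R-HNK. In sham replicate 1 only 2 of the 76 core genes lay above their own mean, and in SNI saline replicate 3 only 10 did, against 38 to 61 in the other 7 libraries. The lowest library was 1 of these 2 for 68 of 76 core genes. The 3 R-HNK libraries include no such low library, and each of the other groups includes 1.

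**Figure D3:**
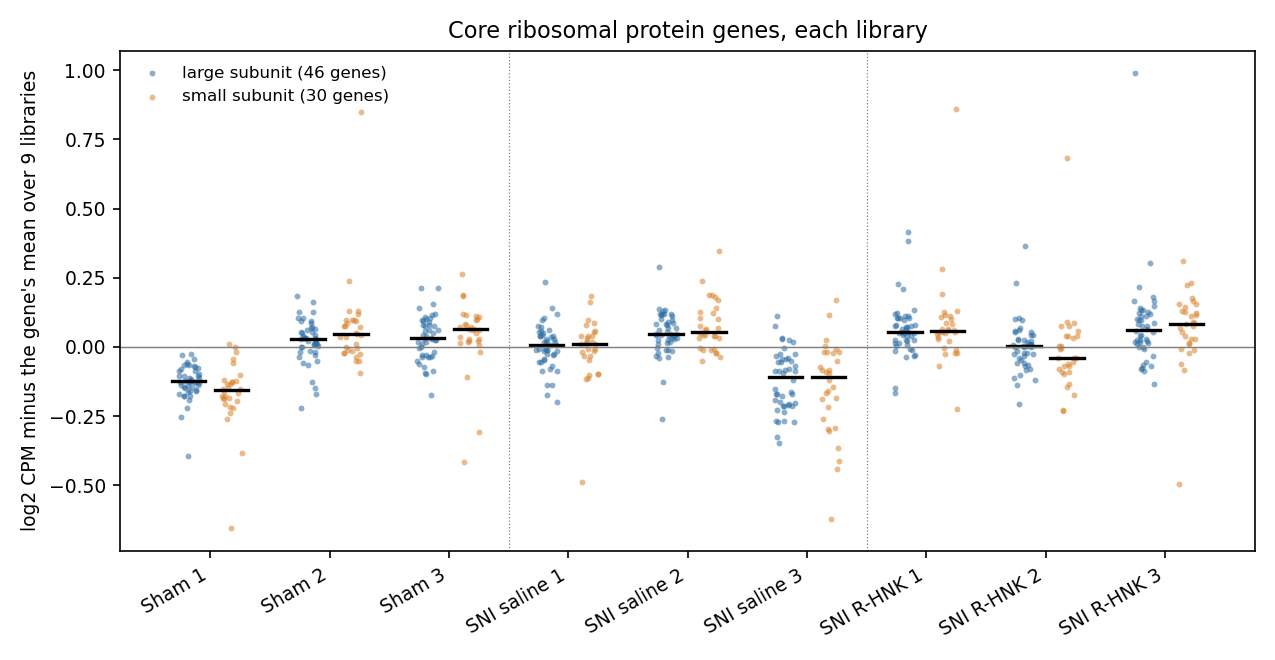
Deviation of each core gene from its own mean over 9 libraries (log2 CPM), 1 dot per gene, with large subunit genes in blue, small subunit genes in orange and the median as a black bar. Nearly all genes of both subunits lie below 0 in sham replicate 1, most do in SNI saline replicate 3, and single dots far from the rest are Rps27, Rps27a and Rpl17.

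Both subunits shared this pattern. The mean deviation in sham replicate 1 was -0.13 for large and -0.17 for small subunit genes, and in SNI saline replicate 3 it was -0.12 and -0.15. The ratio of large to small subunit counts was 1.67, 1.61 and 1.61 in the sham replicates, 1.63, 1.62 and 1.67 in the SNI saline replicates, with 1.64, 1.67 and 1.61 for R-HNK. The group means were 1.63 ± 0.0338 (SD, n = 3), 1.64 ± 0.0243 and 1.64 ± 0.0310, so they differed by less than the spread between mice. The spread of a core gene over the 9 libraries, a median SD of 0.108 on the log2 scale, was near the 0.104 of 5099 other genes in the same range of level.

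Other measures moved with the 2 low libraries in part. Sham replicate 1 had the highest level of Malat1, a long RNA kept in the nucleus, at 1652 CPM, against 943 to 1227 in the others, while SNI saline replicate 3 had 1118. Over the list of 6 nuclear RNAs to which Malat1 belongs, the mean deviation was 0.27 in sham replicate 1 and also 0.27 in R-HNK replicate 3, where the members were high, and -0.13 in SNI saline replicate 3. In SNI saline replicate 3 the 19 core genes with the shortest messengers (271 to 517 bases) deviated by -0.19 and the 19 with the longest (975 to 3706 bases) by -0.09, whereas in sham replicate 1 the values were -0.15 and -0.14. In sham mice the striatal markers were also low in the replicate in which the members were low. Among R-HNK mice, replicate 2 had the lowest summed striatal markers, 284 CPM against 698 and 990. It also had the lowest mean deviation of the core genes, -0.00 against 0.07 and 0.07. Among the SNI saline mice, whose striatal markers were all low, the members ranged from -0.13 to 0.06. The part of nuclear RNA, messenger length and the striatal markers in the pattern was not tested. With the striatal marker score as a covariate, 0 members passed in any comparison, and the median log2 fold change of SNI saline against sham mice was 0.10 for large and 0.13 for small subunit genes. For R-HNK against SNI saline mice it turned to -0.01 and -0.04, and for R-HNK against sham mice it was 0.08 and 0.09. Without the 4 striatal-raised libraries, which leaves 1 sham mouse (replicate 1) and 1 R-HNK mouse (replicate 2), the medians were 0.08 and 0.14 in the first comparison, 0.01 and -0.00 in the second, and 0.10 and 0.13 in the third.

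A few members varied far more between libraries than the rest, and the reads of near-identical copies were examined for all members. A copy was a GENCODE M21 transcript with at least 98% identity to the member's messenger over at least 80% of the copy's length. Such copies were found for 66 members, 250 copies in all, and for 27 of the 66 the copies held at least 10% of the summed counts. The 10 most variable core genes, chosen by their SD, were all among these 27, with at least 14.9% of counts in copies, while 17 of the other 66 core genes were. Member and summed copies were negatively correlated over the 9 libraries in 12 of the 27. Rps28 varied 1.91-fold alone and still 1.64-fold with its 3 copies added. Rpl35a and its 8 copies rose and fell together (r = 0.56), with a 1.57-fold range alone and 1.40-fold summed. How reads that match several places were counted is not stated in these sources.

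Rps27 was the most variable core gene and the reverse of its copy. It measured 33.7, 56.7 and 39.7 CPM in the sham replicates, 37.8, 62.5 and 59.5 CPM in the SNI saline replicates, with 96.2, 85.0 and 37.6 CPM for R-HNK. Rps27rt measured 56.4, 58.0 and 75.2, then 61.7, 44.6 and 29.95, then 8.56, 19.9 and 71.6 CPM in matching order. Where Rps27 was highest, in R-HNK replicates 1 and 2, Rps27rt was lowest. Rps27 varied 2.86-fold between libraries and Rps27rt 8.79-fold, while the sum with both copies ran from 89.7 to 115 CPM, a 1.29-fold range. The log2 fold change of R-HNK against sham mice was 0.75 for Rps27 alone (adjusted p = 1.00 in edgeR's test) and -0.00 for the sum. A read within the identical coding sequence printed above could be given to either gene, so the value of each gene alone is uncertain.

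Rpl17 had 1 library far from the others. It measured 37.8 to 42.9 CPM in 8 libraries and 87.5 CPM in R-HNK replicate 3. Its copy Rpl17-ps10 measured 65.4 to 90.8 CPM in those 8 libraries and 29.2 CPM in R-HNK replicate 3. The sum of Rpl17 and its 9 copies ran from 183 to 227 CPM, with R-HNK replicate 3 at 203. The log2 fold change of R-HNK against sham mice was 0.53 for Rpl17 alone and 0.09 for the sum.

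Rps27a, which encodes ubiquitin fused to a small subunit protein, had its own outlying library. It lies at chromosome 11, 29545846 to 29548109. It measured 100 CPM in sham replicate 2 and 41.0 to 58.8 CPM in the other 8 libraries, and its copy Rps27a-ps2 measured 20.8 CPM there and 30.6 to 38.5 CPM elsewhere. The copy differs from the messenger by 1 mismatch in 467 aligned bases, A375G, counted from the first base of the start codon. The stretch around that base is printed with the base in capitals, to show how little sets the 2 apart.
Rps27a: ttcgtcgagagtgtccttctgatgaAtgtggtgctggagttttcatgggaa
Rps27a-ps2: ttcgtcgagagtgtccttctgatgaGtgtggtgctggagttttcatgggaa
The sum of Rps27a and its 3 copies remained highest in sham replicate 2, at 126 CPM against 84.6 to 103 in the others. The log2 fold change of SNI saline against sham mice was -0.50 alone (adjusted p = 0.401 in edgeR's test) and -0.24 for the sum (unadjusted p = 0.0493, adjusted p = 0.297).

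For Rpl30 the same step changed the value with the smallest p. It lies at chromosome 15, 34440505 to 34443640. Its 6 copies summed to 21.7, 32.2 and 34.1 CPM in sham, 21.4, 33.8 and 29.1 CPM in SNI saline, and 18.98, 4.01 and 28.8 CPM in R-HNK mice. R-HNK replicate 2 had the highest Rpl30 and by far the lowest copies. The copy with the most reads, Gm12191, has 1 mismatch in 348 aligned bases, G96A, on the same numbering.
Rpl30: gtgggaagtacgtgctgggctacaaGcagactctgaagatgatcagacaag
Gm12191: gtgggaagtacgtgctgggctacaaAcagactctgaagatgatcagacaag
With the copies added, the sum ran from 88.9 to 107 CPM. The log2 fold change of R-HNK against SNI saline mice fell from 0.37 (unadjusted p = 0.00172 in edgeR's test) to 0.12 (unadjusted p = 0.134).

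Rpl21 and Rpl7a held the smaller part of their summed reads, and Rps13 the larger part. Rpl21 had 16 copies, and its log2 fold change of R-HNK against sham mice was 0.30 alone and 0.02 with the copies. Rpl7a had 11 copies, and R-HNK against SNI saline mice gave 0.20 alone and -0.02 with them. Rps13 measured 60.8 to 91.3 CPM and its 4 copies 3.90 to 26.0 CPM, and the sum ran from 77.3 to 95.9 CPM. Rps12 had a log2 fold change of 0.27 in SNI saline against sham mice alone and 0.02 with its 5 copies.

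**Figure D4:**
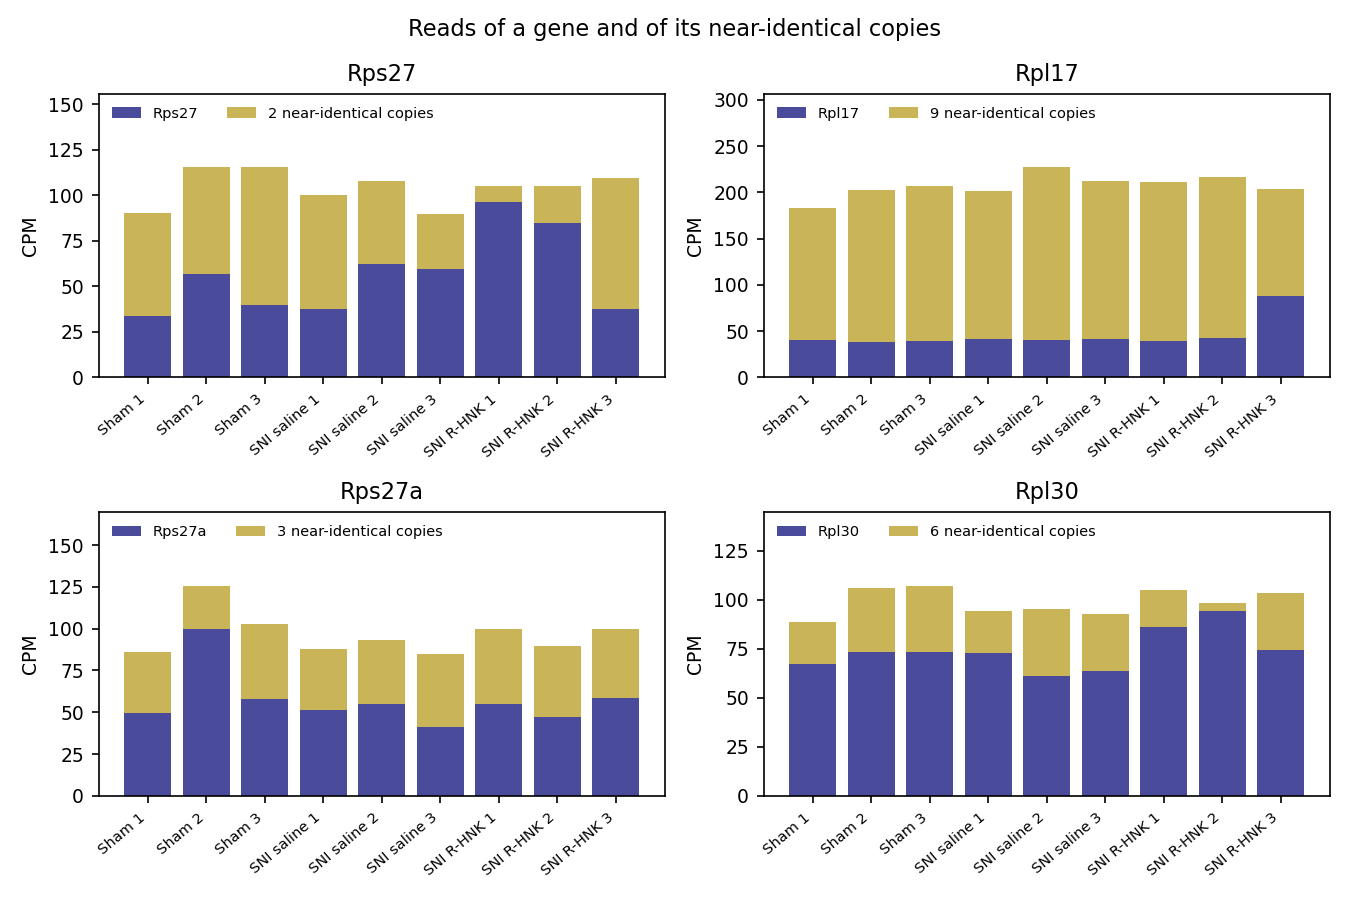
CPM of 4 ribosomal protein genes (dark) and of their near-identical copies summed (light, stacked) in each of 9 libraries. The dark parts change between libraries, as for Rps27 (33.7 to 96.2 CPM) and Rpl17 in R-HNK replicate 3, while the heights of the whole bars change less, except for Rps27a in sham replicate 2.

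Over the 27 members with at least 10% of counts in copies, the SD over 9 libraries was smaller for the sum than for the member in 21. Their median SD was 0.119 alone and 0.0926 summed (log2). Over all 66 members with copies, whatever the share of counts in them, the SD was smaller for the sum in 47. A sum can vary less than its parts by arithmetic alone. The 19 core genes with no copy or under 1% of counts in copies had a median SD of 0.110 and a highest SD of 0.151. Just above that limit, Rps29 (2.37% of counts in copies) had an SD of 0.191 alone and 0.183 summed. Rps19 (1.72%) had 0.177 and 0.174, so a wide spread was also seen in genes with few reads in copies. After summing each member with its copies, 0 of 82 family sums passed in any comparison in edgeR's test. Of all 21559 rows tested, 1.17%, 0.121% and 0% passed. At an unadjusted p under 0.05 the count was 1, 1 and 0 of the 82 sums. In the fit without summing, 16.6%, 7.47% and 3.53% of all genes lay under that limit. The median log2 fold changes over the sums were -0.00, 0.05 and 0.05, against -0.00, 0.06 and 0.05 without summing.

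**Figure D5:**
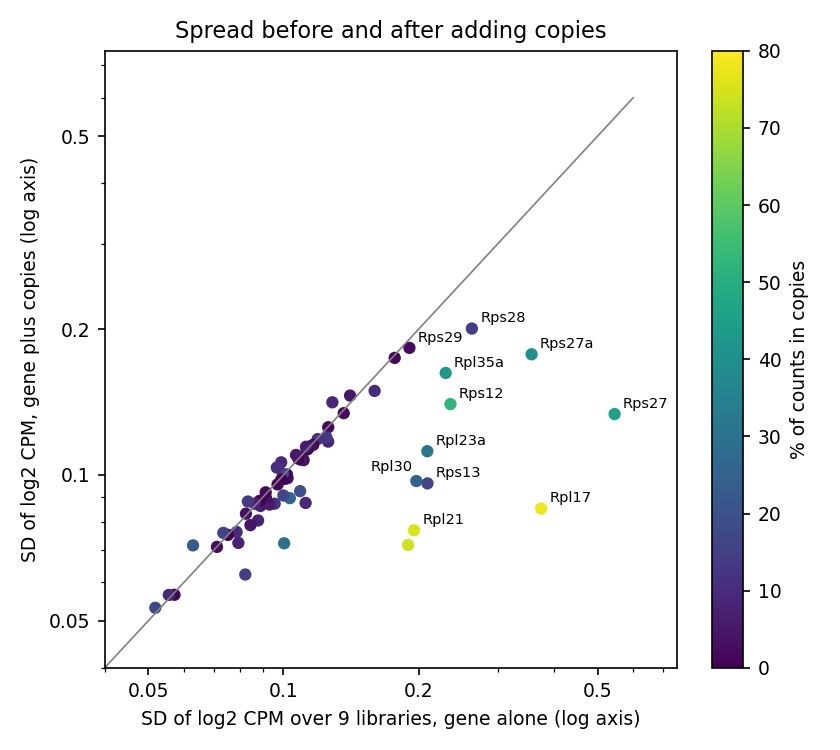
SD of log2 CPM over 9 libraries for each core gene with near-identical copies, alone (horizontal, log axis) and summed with its copies (vertical, log axis), coloured by the percent of counts in copies, with the line of equality. Rps27, Rpl17, Rps27a, Rps12, Rps13, Rpl23a, Rpl30 and Rpl21 are among those well below the line, and most other genes lie near it.

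Rows named as ribosomal protein pseudogenes, 309 in the table and 219 of them with counts, summed to 666 to 787 CPM per library, with the lowest sum in sham replicate 1. Of the core genes that the pattern missed, Rps3a1, of the small subunit, measured 189 to 228 CPM and Fau, also of the small subunit, 134 to 162 CPM. Neither of these, nor Rack1, Rpl22l1 or Rpl7l1, passed in any comparison in edgeR's test.

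Genes around the ribosome were counted from lists outside the family. Of 78 mitochondrial ribosomal protein genes, which build the separate ribosome of mitochondria, 0 passed in any of the 3 comparisons, with 71 above 0 in SNI saline against sham mice and a median log2 fold change of 0.11. The medians in the other 2 comparisons were -0.06 and 0.06. Of 70 nuclear-encoded respiratory chain genes 0 passed, with 65 above 0 in the first comparison and medians of 0.13, -0.08 and 0.04. Over the same 3 comparisons the medians of the 76 core cytosolic genes were -0.00, 0.06 and 0.05, and the comparisons share libraries. In the first comparison markers of other kinds differed as well. All 6 excitatory neuron markers were higher, with a median log2 fold change of 0.40, and 1 passed in edgeR's test, Neurod6, a neuronal transcription factor, at an adjusted p of 0.00901. Of the prelimbic layer markers, 5 of 6 were higher and 1 passed, Fezf2, a factor of deep-layer neurons, at an adjusted p of 0.0173 in edgeR's test. All 6 fibroblast markers were lower, with a median of -0.87, and 2 passed, Igf2 and Col1a1. No marker of the other cell types passed. Oligodendrocyte markers were higher for 0 of 7 (median -0.44), blood for 0 of 5 (-0.50) and microglia for 0 of 6 (-0.12). Astrocyte markers were higher for 1 of 6 (-0.34), choroid plexus for 1 of 5 (-0.75) and endothelial cells for 1 of 6 (-0.07). Inhibitory neuron markers were higher for 3 of 6 (-0.14) and striatal neuron markers for 0 of 12 (-2.23). Of all genes tested, 1.07% passed and 47.6% were higher. The part of these cell types in the medians was not tested. The difference between the lists was not tested.

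Of 46 ribosome biogenesis genes 0 passed, with medians of 0.07, -0.05 and 0.01. Of 20 genes listed for 5' TOP messengers, translation factors and others, 0 passed, with medians of 0.04, -0.02 and 0.00. The start motif was not counted for this list. Ybx1, an RNA-binding protein, had the smallest p of that list, a log2 fold change of -0.24 with an SE of 0.0661 and an adjusted p of 0.1004 in edgeR's test in SNI saline against sham mice. A further list of 31 genes held S6 kinases, related kinases, mTOR signalling genes and other regulators such as Max. The medians of this list over the 3 comparisons were -0.00, 0.01 and -0.01, with 15 of 31 above 0 in the first. In the comparison of SNI saline with sham mice 1 of the 31 passed as lower and 0 as higher, where 1.07% of all genes tested passed. The gene was Tia1, an RNA-binding protein known to bind TOP messengers, at 114 ± 3.17 CPM in SNI saline and 144 ± 5.27 CPM in sham mice (SD, n = 3), a log2 fold change of -0.34 with an SE of 0.0623 and an adjusted p of 0.0254 in edgeR's test. In R-HNK mice Tia1 measured 136 ± 5.40 CPM, and its log2 fold change against SNI saline mice was 0.25 (adjusted p = 0.275 in edgeR's test).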

How the data were processed

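The deposited table held expected counts, that is estimated read counts per gene, as whole numbers without normalization, for 9 libraries. HISAT2 2.0.5, featureCounts 1.5.0-p3 and mm10 are named in the submitters' processing notes, whereas StringTie appears in the name of the table. The handling of strand and of multi-mapped reads is not stated in these sources. Library totals are given above.

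The fit to the counts used edgeR 4.0.16 under R 4.3.3 (filterByExpr by group, TMM, robust quasi-likelihood fit of all 9 libraries with 1 mean per group). P-values were adjusted by Benjamini-Hochberg over all 21765 genes tested, and a gene passed under 0.05. Other settings used DESeq2 1.42.0 and limma 3.58.1 (voom). With 3 mice against 3, the spread estimate borrows from all genes. Copies were found with BLAST+ 2.17.0 against GENCODE M21 transcripts, and start windows came from RefSeq. Named members were those with the smallest p or the highest or lowest fold change or level per length, the paralogs, the stalk proteins and 6 members with a role of their own. Genes of other lists were named by smallest p. Rps13, Rps19, Rps28, Rpl35a and the copies were named after their values were seen. The members and lists were chosen with earlier results of these data known.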

Additional observations from a re-analysis of the deposited data

How the results depend on the processing

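No member passed in any of the 3 comparisons under any of 19 planned settings or of 2 that were chosen after seeing the data (members summed with their copies, and core members only). The smallest adjusted p of a member over these settings was 0.0865 for SNI saline against sham mice, 0.0631 for R-HNK against SNI saline mice and 0.228 for R-HNK against sham mice, the last from a fit that leaves 1 mouse in each of those groups and assumes that it varies like the others. The median log2 fold change of SNI saline against sham mice moved to 0.0955 (large) and 0.125 (small) when the striatal marker score entered as a covariate, and to 0.0840 and 0.139 without the 4 striatal-raised libraries. That of R-HNK against SNI saline mice turned to -0.0126 and -0.0361 with the covariate and was 0.00660 and -0.00450 without those libraries, and that of R-HNK against sham mice was 0.0810 and 0.0927, then 0.0994 and 0.128. Leaving out 1 library at a time, the median of SNI saline against sham mice ran from -0.0522 to 0.0553 for the large and from -0.0408 to 0.0673 for the small subunit. For R-HNK against SNI saline mice it ran from -0.000442 to 0.1003 and from 0.00213 to 0.0847, and for R-HNK against sham mice from 0.00873 to 0.0825 and from 0.00240 to 0.0974.

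With the replicate number as a block, 0 members passed in each comparison, and the medians were -0.00493 (large) and 0.00255 (small), then 0.0592 and 0.0485, then 0.0533 and 0.0529. Deviations of same-numbered libraries correlated at -0.104 to 0.0917 over 9 pairs, and those of different-numbered libraries at -0.163 to 0.175. Pairing of mice by number was not seen in these values, which cannot exclude it. Core genes had 1961 to 28423 counts in a library, and how reads shared with near-identical copies were assigned is not stated.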
